A study of Mus musculus with 15 samples.

Results

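The 10 genes described here are core parts of the circadian clock and its nearest outputs, Arntl (also called Bmal1), Clock, Npas2, Per1, Per2, Per3, Cry1, Cry2, Dbp and Nr1d1. They were chosen by symbol, and all 10 were found among the 24411 genes of the count tables. The series holds 15 mouse liver libraries made from polyA RNA. The labels place 4 in a group named TdTomato, taken as the wild type that the design text names, 6 in a group named LATS KO (LATS_KO here) and 5 in a group named Yap OE, for overexpression (YAP_OE here). LATS kinases restrain the coactivator YAP in the Hippo pathway. The genotype and treatment labels hold only these group names with a number. Strain, sex, age, diet and the hour at which livers were taken are not given in the sources used here. Nor is how LATS was removed or Yap overexpressed, or in which cells. The extraction text in the labels describes mice of another design, and nothing was taken from it. Whether each library is its own animal is not stated. The p-values therefore speak of the spread among libraries, and that spread may be technical.

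The clock runs in nearly every liver cell as a transcriptional feedback loop. ARNTL pairs with CLOCK or its relative NPAS2 and binds E-box elements to switch on the Per and Cry genes, whose proteins then repress the pair. In a second loop the same pair switches on Nr1d1, which encodes the repressor REV-ERB alpha, and this repressor competes with ROR proteins at ROR elements to hold down Arntl, Npas2 and Clock. Dbp encodes an activator that acts on D-box elements and is a direct E-box target. In the liver of mice kept in a light and dark cycle, Arntl and Npas2 transcripts are high around the end of the night and low around the end of the day, while Nr1d1, Dbp and then the Per transcripts are high during the day and early evening and Cry1 follows later. Transcript levels of these genes therefore depend strongly on the hour of sampling, on feeding time and on light.

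The elements named above can be seen in the promoter windows of 4 of these genes, shown because these are the windows of clock genes in which their letters were found. The windows are 300 bases long, from 250 before to 50 after a RefSeq start, on the gene's strand, 5′ to 3′, from GRCm38.p6. Capitals mark each match to CACGTG (E-box), TTATGNAA (D-box) or TAGGTCA (ROR element), searched on both strands, and no match overlaps another.
Arntl, chr7:113207261-113207560, plus strand: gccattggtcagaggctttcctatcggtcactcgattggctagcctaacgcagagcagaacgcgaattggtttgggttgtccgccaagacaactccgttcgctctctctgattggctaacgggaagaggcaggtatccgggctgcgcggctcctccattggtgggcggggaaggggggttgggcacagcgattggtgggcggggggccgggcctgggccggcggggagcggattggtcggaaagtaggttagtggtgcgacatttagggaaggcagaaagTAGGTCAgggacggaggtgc
Per1, chr11:69098699-69098998, plus strand: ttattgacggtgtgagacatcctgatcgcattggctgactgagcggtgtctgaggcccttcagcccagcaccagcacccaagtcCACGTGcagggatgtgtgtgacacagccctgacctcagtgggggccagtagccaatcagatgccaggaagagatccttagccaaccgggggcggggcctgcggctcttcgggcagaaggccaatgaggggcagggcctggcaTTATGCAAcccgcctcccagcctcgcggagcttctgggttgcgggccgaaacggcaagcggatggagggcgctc
Per3, chr4:151044616-151044915, minus strand: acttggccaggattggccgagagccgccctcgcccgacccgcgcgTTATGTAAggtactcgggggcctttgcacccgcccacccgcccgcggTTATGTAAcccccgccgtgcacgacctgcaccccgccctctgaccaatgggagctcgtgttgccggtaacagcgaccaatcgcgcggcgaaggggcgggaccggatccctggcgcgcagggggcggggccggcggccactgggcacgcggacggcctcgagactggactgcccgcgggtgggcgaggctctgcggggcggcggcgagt
Cry1, chr10:85185005-85185304, minus strand: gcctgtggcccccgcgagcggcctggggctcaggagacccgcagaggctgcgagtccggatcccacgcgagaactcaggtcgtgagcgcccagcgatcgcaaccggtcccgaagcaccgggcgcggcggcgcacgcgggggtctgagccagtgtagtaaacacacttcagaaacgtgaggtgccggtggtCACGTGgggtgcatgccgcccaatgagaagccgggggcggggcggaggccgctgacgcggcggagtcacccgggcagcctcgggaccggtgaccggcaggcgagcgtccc
Arntl held 1 ROR element, which begins 30 bases past the start. Per1 held 1 E-box and 1 D-box, Per3 held 2 D-boxes, and Cry1 held 1 E-box 60 bases before the start. RefSeq windows matched 9 of the 10 genes, by 13 windows. Of these 13, 2 held the E-box, 2 the D-box and 1 the ROR element. Over all 32851 windows of this length the shares were 7.15%, 3.38% and 2.61%. The other windows of the clock genes, those of Clock, Npas2, Cry2, Dbp and Nr1d1 among them, had none of these letters. A match is a description of the sequence and not a measured binding site.

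The libraries held 6166680 to 28225360 counts in genes. TdTomato 1 and LATS_KO 3 stood apart, with 78.5% and 89.9% of reads unmapped and 8501 and 9710 genes detected, against at most 16.7% unmapped and at least 13372 genes in each of the other 13. The comparisons of the 10 clock genes are therefore also given without these 2 libraries, called the reduced fit. For other genes the reduced fit is given only where stated. Yap1 was at 146 to 212 CPM (counts scaled to library size) in YAP_OE and at 94.9 to 115 CPM in TdTomato. Lats1 was at 0 to 27.4 CPM in LATS_KO and at 0, 44.5, 46.0 and 28.7 CPM in TdTomato 1 to 4. The overlap of Lats1 thus rests on TdTomato 1. Lats2 was at 7.7 to 41.0 CPM in LATS_KO and at 0, 19.6, 19.1 and 17.4 CPM in TdTomato 1 to 4. These whole-gene values do not check the deletion. Hepatocyte markers (10 genes, among them Alb and Ttr) summed to at least 42900 CPM in every library. In bulk tissue, fewer cells of a type and less RNA per cell cannot be told apart.

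Among the activators, Arntl (chromosome 7, 113207465 to 113314126, GRCm38) was at 0, 30.2, 14.6 and 11.7 CPM in the controls (TdTomato 1 to 4). The 0 counts of TdTomato 1 allow up to 0.232 CPM, which covers counting error only. In LATS_KO the lowest, median and highest values were 2.23, 12.4 and 26.9 CPM, and in YAP_OE 1 to 5 the values were 13.8, 16.6, 8.60, 5.58 and 11.3 CPM. The 3 groups overlapped. Within LATS_KO the libraries fell far apart, with 17.9, 26.9 and 24.0 CPM in LATS_KO 1, 2 and 3 and 2.41, 2.23 and 6.91 CPM in LATS_KO 4, 5 and 6.

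Npas2 (chromosome 1, 39193731 to 39363236), the relative of Clock that can take its place as the partner of ARNTL, was at 0, 4.41, 1.67 and 0.814 CPM in the controls (TdTomato 1 to 4). It was at 0.337, 3.66 and 9.55 CPM (lowest, median, highest) in LATS_KO and at 7.85, 9.0, 3.52, 2.89 and 6.94 CPM in YAP_OE 1 to 5. LATS_KO 1, 2 and 3 were again the high libraries, at 6.60 to 9.55 CPM, while LATS_KO 4, 5 and 6 were at 0.337 to 0.721 CPM. YAP_OE overlapped both other groups, and 3 of its 5 libraries lay above the highest TdTomato library by more than 2 CPM.

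Clock (chromosome 5, 76209868 to 76304792), which encodes the main partner of ARNTL, was at 34.2, 87.3, 81.6 and 63.2 CPM in the controls (TdTomato 1 to 4). It was at 20.8, 39.4 and 95.3 CPM (lowest, median, highest) in LATS_KO and at 35.1, 40.9, 36.4, 24.6 and 23.2 CPM in YAP_OE. TdTomato 1 was the low control. The other 3 controls lay above every YAP_OE library, and LATS_KO 3, the library with few detected genes, was the highest of all 15.

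**Figure D1:**
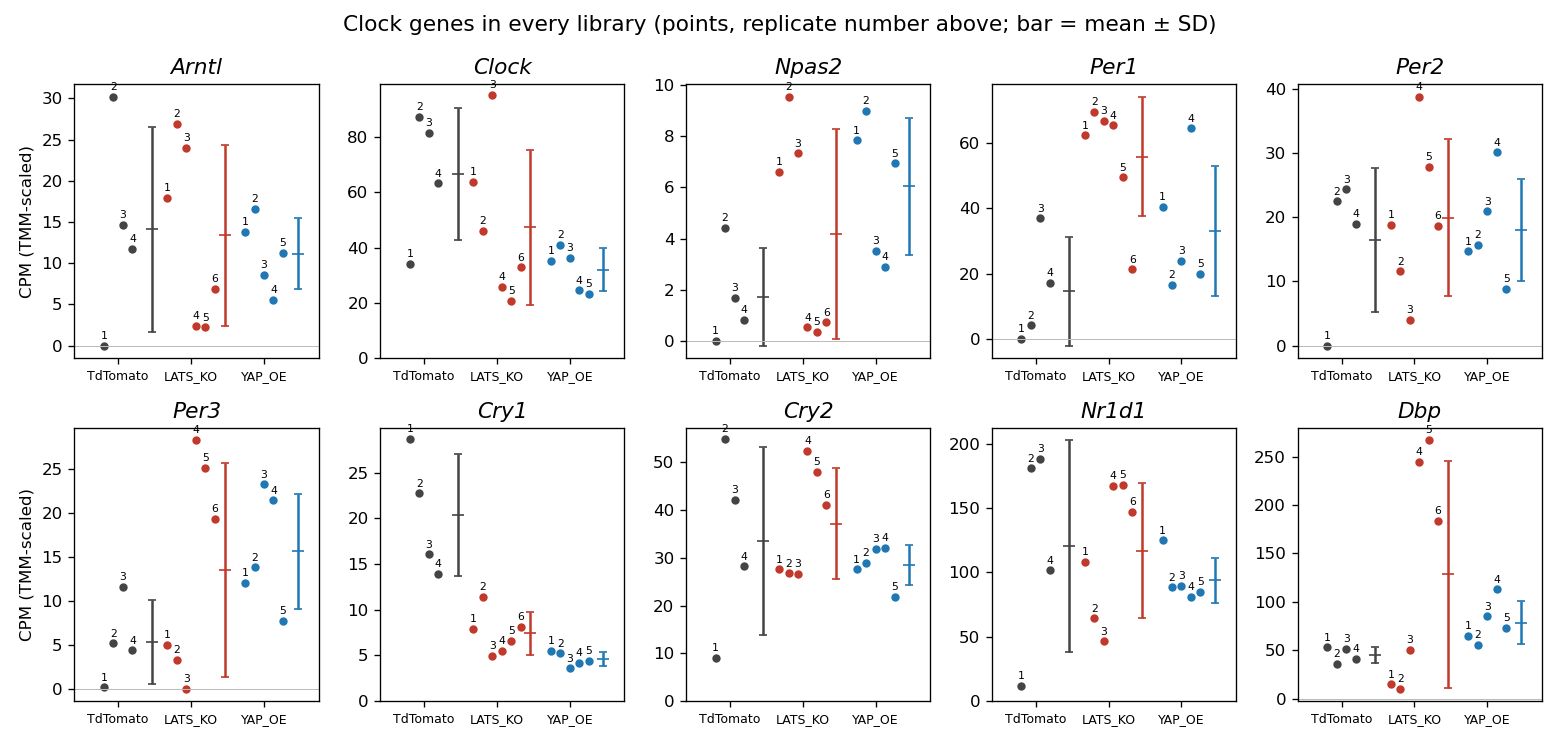
CPM of the 10 clock genes in each library (y axis, linear), by group (x axis); points carry their replicate number, and the bar beside each group is the mean with its SD (n = 4, 6 and 5). Cry1 is the gene whose TdTomato points all lie above the other groups, and the LATS_KO points of Arntl, Npas2, Per3 and Dbp fall into a high and a low set.

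Among the repressors, Per1 (chromosome 11, 69095217 to 69109960), the member that also responds quickly to glucocorticoid and other acute signals, was at 0, 4.25, 36.9 and 17.2 CPM in the controls (TdTomato 1 to 4). It was at 21.4, 64.0 and 69.7 CPM (lowest, median, highest) in LATS_KO and at 40.5, 16.6, 24.0, 64.6 and 19.99 CPM in YAP_OE 1 to 5. In 5 of 6 LATS_KO libraries it exceeded every control, and LATS_KO 6 lay inside the control range.

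Per2 (chromosome 1, 91415982 to 91459324), a dose-limiting partner of the CRY proteins, was at 0, 22.5, 24.4 and 19.0 CPM in the 4 controls. It was at 4.00, 18.8 and 38.8 CPM (lowest, median, highest) in LATS_KO and at 14.7, 15.7, 21.0, 30.1 and 8.82 CPM in YAP_OE. These ranges overlapped throughout. Per3 (chromosome 4, 151003652 to 151044665), whose loss leaves the clock largely running, was at 0.155, 5.19, 11.6 and 4.36 CPM in TdTomato and at 0, 12.2 and 28.3 CPM (lowest, median, highest) in LATS_KO. It was at 12.0, 13.8, 23.2, 21.4 and 7.72 CPM in YAP_OE. LATS_KO 4, 5 and 6 were the high libraries for Per3 at 19.3 to 28.3 CPM, and LATS_KO 1, 2 and 3 were at 0 to 5.03 CPM, the reverse of their standing for Arntl. The 0 counts of LATS_KO 3 allow up to 0.333 CPM.

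Cry1 (chromosome 10, 85131700 to 85185064), which encodes the strong late-phase repressor of the loop, was lower in both groups than in the controls. It was at 28.7, 22.7, 16.045 and 13.9 CPM in the controls (TdTomato 1 to 4), at 5.00, 7.25 and 11.4 CPM (lowest, median, highest) in LATS_KO, and at 5.54, 5.22, 3.59, 4.18 and 4.43 CPM in YAP_OE 1 to 5. No library of either group reached the lowest control. Group means were 20.3 ± 6.69 CPM (SD, n = 4), 7.42 ± 2.31 CPM (n = 6) and 4.59 ± 0.789 CPM (n = 5). The highest control was TdTomato 1, and the remaining controls were still above every other library.

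Cry2 (chromosome 2, 92403646 to 92434043), the second cryptochrome, did not show this pattern. It was at 9.06, 54.9, 42.1 and 28.2 CPM in the controls (TdTomato 1 to 4), at 26.7, 34.3 and 52.4 CPM (lowest, median, highest) in LATS_KO and at 27.6, 29.0, 31.8, 32.0 and 21.8 CPM in YAP_OE. LATS_KO and YAP_OE both lay within the control range, whose low end was TdTomato 1. LATS_KO 1, 2 and 3 (26.7 to 27.6 CPM) and YAP_OE 1 and 5 lay below the other controls. In the reduced fit Cry2 was at −0.56 in YAP_OE (adjusted p = 0.093, edgeR) and at −0.094 in LATS_KO (adjusted p = 0.83, edgeR), on the log2 scale against TdTomato. The log2 ratio of Cry1 to Cry2 counts within a library, which does not depend on library size, was 1.66, −1.27, −1.39 and −1.02 in TdTomato 1 to 4. It was −2.32, −2.47, −3.15, −2.94 and −2.30 in YAP_OE, below every control, while LATS_KO 2 at −1.23 lay inside the control range.

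In the second loop and its output, Nr1d1 (chromosome 11, 98767932 to 98775333) was at 12.1, 181, 188 and 102 CPM in the controls (TdTomato 1 to 4), at 46.5, 128 and 168 CPM (lowest, median, highest) in LATS_KO and at 125, 88.5, 89.6, 81.1 and 84.9 CPM in YAP_OE. The groups overlapped, with TdTomato 1 and LATS_KO 3, the libraries with few genes, the lowest of their groups. Dbp (chromosome 7, 45705088 to 45710203) was at 53.1, 35.9, 51.2 and 41.0 CPM in the 4 controls and at 65.0, 55.3, 85.1, 113 and 73.4 CPM in YAP_OE. All YAP_OE libraries were above all controls. In LATS_KO, Dbp ran from 10.2 through a median of 117 to 267 CPM, with 14.9, 10.2 and 50.5 CPM in LATS_KO 1, 2 and 3 and 244, 267 and 184 CPM in LATS_KO 4, 5 and 6. No LATS_KO library lay between 50.5 and 184 CPM, and the controls lay within or just above the range of LATS_KO 1, 2 and 3. Dbp overlaps Sphk2 on the other strand, and the unstranded column held 51.4% of its strand-aware counts, which are the ones given here.

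The groups were compared with the quasi-likelihood test of edgeR over all 13055 genes tested, with Benjamini-Hochberg adjustment. All 10 clock genes passed the filter on low counts. In LATS_KO against TdTomato 1 of 10 clock genes was called, Cry1, where 11.0% of all genes were called and 0.973% were called lower. Cry1 fell by 1.45 ± 0.36 (SE) on the log2 scale (adjusted p = 0.020, edgeR). Its fold was 2.74. A share of 1 in 10 is near the background share. Its groups were also without overlap, as for 8.55% of all genes. The call held in the reduced fit (−1.15, adjusted p = 0.0090) and ended under 3 alternatives. Without TdTomato 2 it was at −1.40 (adjusted p = 0.072), where 4.44% of all genes were called. With the spread estimated from those 2 groups alone it was at −1.56 (adjusted p = 0.095), where 0.00832% were called, and with the replicate number as a block at −1.47 (adjusted p = 0.070), where 5.67% were called. DESeq2 kept the call, with 22.4% of all genes called. In the reduced fit Clock was called as well (−1.03, adjusted p = 0.042), against −0.49 ± 0.38 (adjusted p = 0.47) with all libraries, and 16.9% of all genes were called there. In the fit with all libraries the other 8 genes had log2 fold changes of −0.08 (Arntl), 1.27 (Npas2), 1.94 (Per1), 0.28 (Per2), 1.34 (Per3), 0.14 (Cry2), −0.04 (Nr1d1) and 1.50 (Dbp), with adjusted p from 0.18 to 0.97. The median over the 10 was 0.21, beside 0.13 over all genes. The signs of Arntl, Npas2, Per2, Cry2 and Nr1d1 changed under at least 1 alternative, among them another scaling (RLE) for Arntl and Nr1d1, so no direction is given for these. Values of the genes not called were loose. Without TdTomato 2 Npas2 was at 2.33, without TdTomato 3 Per1 was at 2.95 and Per3 at 2.05, and with the replicate block Dbp was at 0.21.

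In YAP_OE against TdTomato, Cry1 was again the single call, where 28.7% of all genes were called (17.9% higher and 10.8% lower). It fell by 2.15 ± 0.39 on the log2 scale (adjusted p = 0.0026, edgeR), and by 1.94 (adjusted p = 0.00048) in the reduced fit. Its fold was 4.42. This call held without each of the 15 libraries in turn, with adjusted p from 0.00067 to 0.012. Clock missed the threshold with all libraries (−1.06 ± 0.40, adjusted p = 0.060) and passed it in the reduced fit (−1.27, adjusted p = 0.0065), where 48.4% of all genes were called. Dbp, in spite of groups that did not overlap, did not pass (0.79 ± 0.73, adjusted p = 0.46), and 41.7% of all genes had groups without overlap in this comparison. With the spread estimated from those 2 groups alone, Dbp and Clock were called beside Cry1, where 38.2% of all genes were called. DESeq2 called Cry1 alone, where it called 38.9%. The remaining 7 genes had log2 fold changes of −0.34 (Arntl), 1.80 (Npas2), 1.18 (Per1), 0.13 (Per2), 1.56 (Per3), −0.24 (Cry2) and −0.36 (Nr1d1), with adjusted p from 0.27 to 0.93. Without TdTomato 2 Npas2 was at 2.86, and without TdTomato 3 Per1 was at 2.20 and Per3 at 2.26. The median over the 10 was −0.05, beside 0.17 over all genes. Both comparisons use the same TdTomato libraries.

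In YAP_OE against LATS_KO no clock gene was called in edgeR, where 0.988% of all genes were called (0.498% higher and 0.490% lower), and none of the 10 had an unadjusted p under 0.05. Cry1 came nearest (−0.69 ± 0.35, adjusted p = 0.39) and passed in the reduced fit (−0.78, adjusted p = 0.038), where 12.7% of all genes were called. DESeq2 called 0 of 10, where it called 6.03% of all genes. No clock gene had groups without overlap, against 6.71% of all genes. Voom with quality weights called 5 of 10, where it called 56.1% of all genes. That method gave LATS_KO 1, 2 and 3 weights of 0.34, 0.189 and 0.0505 and LATS_KO 4, 5 and 6 weights of 3.16, 3.42 and 1.02, so its LATS_KO values rest mostly on the second set of libraries. Against TdTomato, voom called 6 of 10 genes in LATS_KO, with Per1 (2.42), Per3 (1.79) and Dbp (2.31) higher and Arntl (−2.75), Clock (−1.65) and Cry1 (−1.59) lower, where it called 26.8% of all genes. In YAP_OE it called 6 of 10, with Per3 (1.35) higher and Arntl (−0.94), Clock (−1.25), Cry1 (−2.06), Cry2 (−0.64) and Nr1d1 (−0.91) lower, where it called 67.9%.

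**Figure D2:**
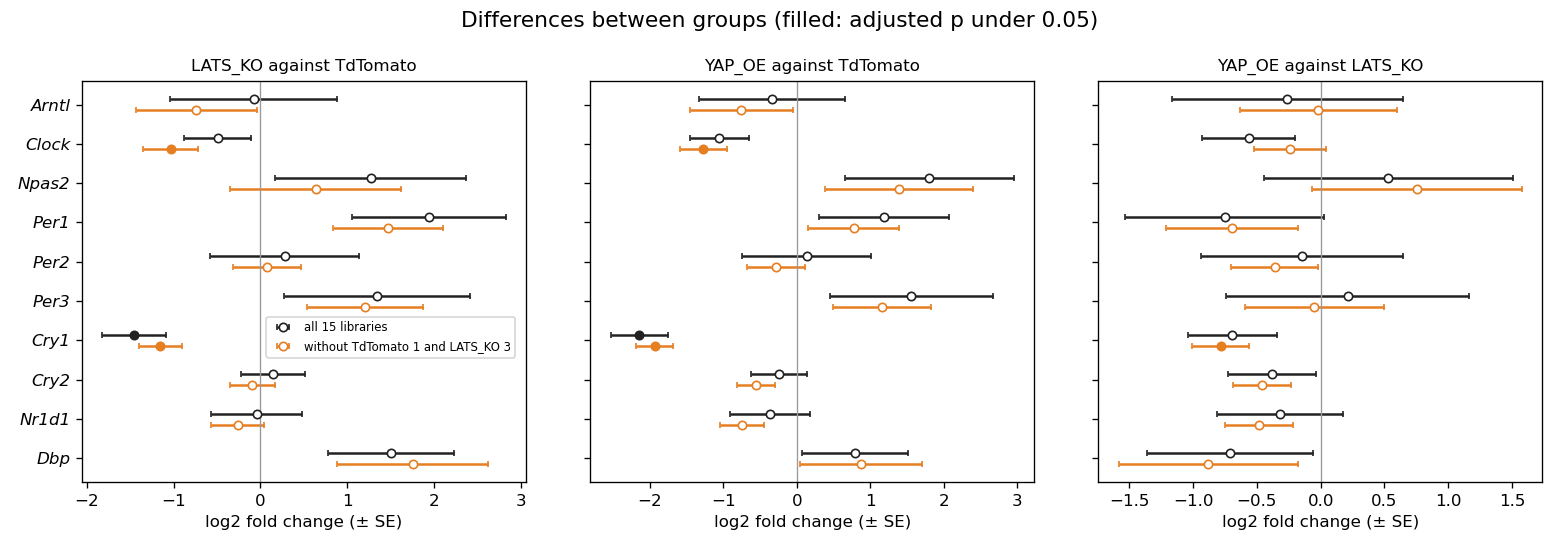
Log2 fold change (x axis) with its SE for each clock gene (y axis) in the 3 comparisons, with all 15 libraries (black) and without TdTomato 1 and LATS_KO 3 (orange); filled points have an adjusted p under 0.05 in edgeR. Cry1 is filled in both fits against TdTomato and in the reduced fit against LATS_KO, and Clock is filled in the reduced fit against TdTomato.

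Several of the clock genes varied widely between libraries of a group. Over the 13 libraries without TdTomato 1 and LATS_KO 3, the SD of log2 CPM within groups was 1.49 for Dbp, 1.49 for Npas2, 1.13 for Arntl and 1.04 for Per3, against a median of 0.43 over all genes tested. These values were larger than those of 96.9%, 96.9%, 92.3% and 89.8% of all genes. Cry1 (0.332) and Cry2 (0.384) lay below that median. Differences between groups held 86.0% of the variance of Cry1 over these 13 libraries but 6.28% for Dbp, 10.7% for Per2, 19.0% for Arntl and 19.6% for Per3, where the median gene had 46.6%. Cry1 thus varied mostly between groups, and Dbp, Per2, Arntl and Per3 mostly within them.

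Ratios of counts within a library show the phase genes against each other without any scaling between libraries. The log2 ratio of Arntl to Dbp was −0.25, −1.81 and −1.81 in TdTomato 2 to 4, and could not be formed in TdTomato 1. It was −2.23, −1.74, −3.31, −4.34 and −2.71 in YAP_OE 1 to 5. In LATS_KO 1 to 6 it was 0.26, 1.41, −1.08, −6.66, −6.91 and −4.73. LATS_KO therefore held both the highest and the lowest of all these ratios, and all TdTomato and YAP_OE values lay in the gap between LATS_KO 3 and LATS_KO 6, apart from TdTomato 2, which lay above it. Arntl to Nr1d1 gave the same division of the LATS_KO libraries, at −2.60, −1.26 and −0.96 in LATS_KO 1, 2 and 3 and at −6.12, −6.24 and −4.41 in LATS_KO 4, 5 and 6. TdTomato 2 to 4 were at −2.58, −3.69 and −3.12 there, and YAP_OE at −3.18, −2.42, −3.38, −3.86 and −2.92. For both ratios TdTomato and YAP_OE overlapped.

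**Figure D3:**
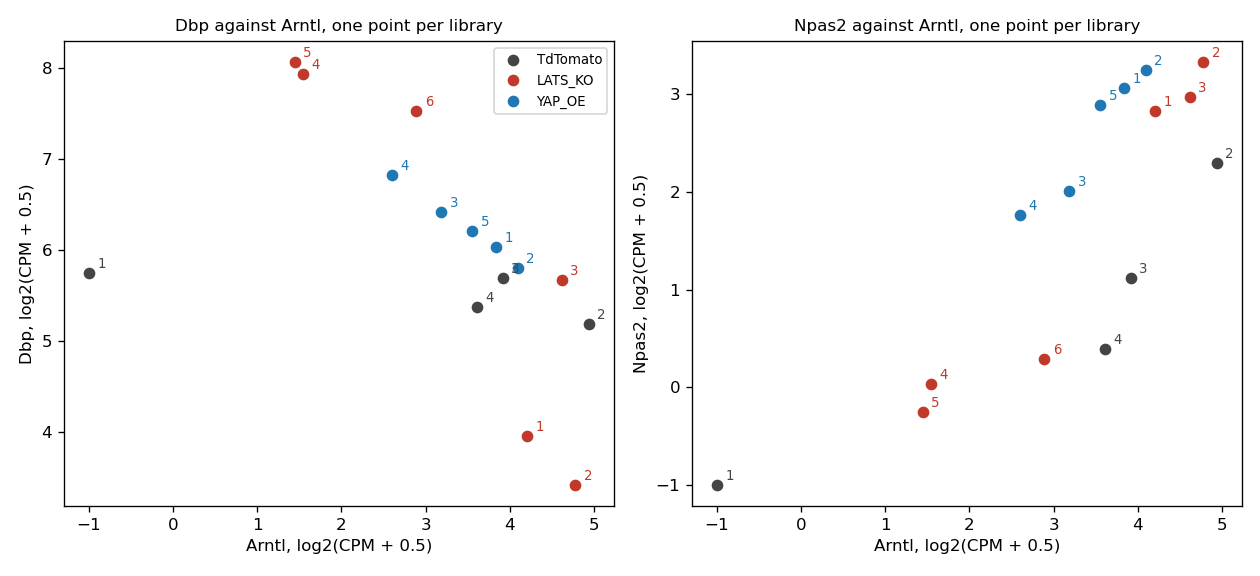
Dbp (left) and Npas2 (right) against Arntl, all as log2(CPM + 0.5), 1 point per library with its replicate number, coloured by group. Within LATS_KO and YAP_OE, libraries with high Arntl had low Dbp. Npas2 ran with Arntl in every group, and YAP_OE 5 lay above TdTomato 4 in Npas2 (6.94 and 0.814 CPM) at nearly the same Arntl (11.3 and 11.7 CPM).

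The order of libraries was also compared between genes, a description chosen after the values were seen. From high to low, Arntl ran 2, 3, 1, 6, 4, 5 in LATS_KO and 2, 1, 5, 3, 4 in YAP_OE, and Npas2 ran in exactly these orders. Of the other 13054 genes tested, 25 (0.192%) had the order of Arntl in LATS_KO, 22 (0.169%) had it in YAP_OE, and Npas2 was the 1 gene with both. The exact reverse of the Arntl order was found in YAP_OE for Dbp, as for 51 of 13054 genes (0.391%). In LATS_KO it was found for 55 genes (0.421%), among them Hlf, which encodes a relative of DBP, and Lpin1, but not for Dbp, whose order from high to low was 5, 4, 6, 3, 1, 2. Nr1d1, Per3 and Cry2 had LATS_KO 4, 5 and 6 as their highest 3 libraries as Dbp did, whereas Clock had them as its lowest 3 as Arntl and Npas2 did.

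Arntl, Npas2 and Clock thus stood opposite to Dbp, Per3, Cry2 and Nr1d1 within LATS_KO, with LATS_KO 1, 2 and 3 on the side of the former and LATS_KO 4, 5 and 6 on that of the latter. The division was not particular to the clock genes. Between the counts of 2 libraries, the mean chi-square per gene was 78.9 to 176.8 within each set and 415.4 to 866.2 across the sets. How many of all genes followed the division was not counted. Within LATS_KO, the log2 range exceeded that of 97.9% of all genes for Per3, 77% for Dbp, 75.4% for Npas2 and 67.5% for Arntl. For Clock, Nr1d1 and Cry2 it exceeded that of 50.9%, 44.8% and 17.8%, so several of these ranges were ordinary. Per1, Per2 and Cry1 did not follow this division. Per1 was at 49.5 to 69.7 CPM in LATS_KO 1 to 5. Per2 was at 18.9, 11.6 and 4.00 CPM in LATS_KO 1, 2 and 3 and at 38.8, 27.9 and 18.7 CPM in LATS_KO 4, 5 and 6, so LATS_KO 1 and 6 nearly coincided. Cry1 was at 7.90, 11.4 and 5.00 CPM and at 5.48, 6.61 and 8.11 CPM in the same libraries, with ranges that overlapped. No label gives the hour of sampling, a batch or a date, so a difference in hour and a difference in liver state cannot be told apart within LATS_KO or between the groups. Of the mapped reads, LATS_KO 1 and 2 had 7.05% and 6.57% outside genes, while LATS_KO 4, 5 and 6 had 17.2% to 25.8%. Unmapped reads made up 3.46% and 4.95% of the former libraries, against 10.1%, 15.3% and 16.7% of the latter. Both shares thus followed the division apart from LATS_KO 3 (18.0% outside genes, 89.9% unmapped). The TMM factors that scale library sizes followed it throughout. LATS_KO 1, 2 and 3 had factors of 1.12, 1.27 and 1.46, against 0.835, 0.728 and 0.742 for LATS_KO 4, 5 and 6. Whether the division is technical was not tested. Marker sums also differed between the sets. The summed hepatocyte markers, mostly Alb, were at 94110, 83170 and 42890 CPM in LATS_KO 1, 2 and 3 and at 179700, 165700 and 188400 CPM in LATS_KO 4, 5 and 6. Summed cholangiocyte markers were at 4377, 1918 and 1317 CPM in the former and at 200.5, 91.4 and 128 CPM in the latter. Spp1 held most of these sums, at 4210, 1782 and 1234 CPM and at 184, 81.1 and 116 CPM. Sox9 and Krt7 divided in the same way, while Krt19 and Epcam overlapped between the sets. Summed markers of dividing cells were at 191, 449 and 266 CPM in LATS_KO 1, 2 and 3 and at 78.6, 56.2 and 41.9 CPM in LATS_KO 4, 5 and 6. Summed endothelial markers were at 72.8, 74.9 and 11.8 CPM and at 222, 194 and 148 CPM in the same libraries. The part of these measures in the clock values was not tested.

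**Figure D4:**
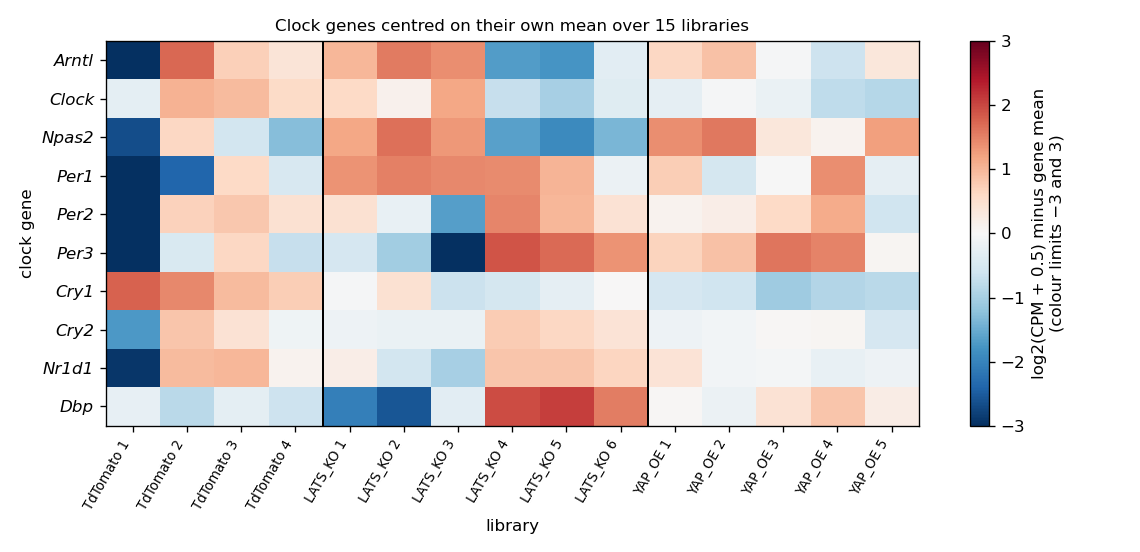
Log2(CPM + 0.5) of each clock gene (y axis) in each library (x axis), centred on the gene's own mean over 15 libraries, with colours limited at −3 and 3. LATS_KO 4, 5 and 6 are low for Arntl, Clock and Npas2 and high for Per3 and Dbp, LATS_KO 1 and 2 the opposite for Arntl, Npas2 and Dbp, and Cry1 splits TdTomato from the rest.

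Levels can be compared between genes only per length, so CPM were divided by the exon length of each gene in GENCODE M21. By mean CPM per kilobase, Nr1d1 (30.5 ± 5.75, SD, n = 5) and Dbp (26.2 ± 7.41) led in YAP_OE, followed by Per1 (5.89), Cry2 (4.50), Per2 (3.08), Clock (2.33), Per3 (1.63), Arntl (1.48), Cry1 (1.38) and Npas2 (1.26). In that order only Dbp and Per1 were separated by more than their SDs. In TdTomato Nr1d1 (39.2 ± 26.7, n = 4) and Dbp (15.1 ± 2.74) also led, and Cry1 followed them at 6.09 ± 2.00. In YAP_OE Cry1 came after all but Npas2, and in LATS_KO (2.22 ± 0.692, n = 6) it came after Per2. In LATS_KO Dbp (42.9 ± 39.2) and Nr1d1 (38.0 ± 17.1) led and could not be ranked against each other. By group mean, the output gene and the second-loop repressor were thus the most abundant of these transcripts per length in all 3 groups. Single libraries departed from this order. In LATS_KO 2 Dbp was at 3.4 and Per1 at 12.4 CPM per kilobase, and in TdTomato 1 Nr1d1 was at 3.93 and Cry1 at 8.58.

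Further genes of the clock were taken from lists made together with the choice of the 10 genes. Of 14 accessory clock genes, all of them tested, 1 was higher and 0 lower in LATS_KO than in TdTomato, and 1 was higher and 1 lower in YAP_OE. Over all genes, 11.0% and 28.7% were called in these comparisons, so neither count exceeds the background share. Csnk1e, the casein kinase that marks PER proteins for destruction, was at 0, 4.25, 3.65 and 3.69 CPM in the controls (TdTomato 1 to 4), at 8.23 to 26.6 CPM in LATS_KO and at 22.6 to 29.8 CPM in YAP_OE. It rose by 2.41 ± 0.73 on the log2 scale in LATS_KO (adjusted p = 0.046) and by 3.21 ± 0.77 in YAP_OE (adjusted p = 0.0083, edgeR), with no overlap with the controls. The first of these calls ended in 10 of the 15 fits that left out 1 library, namely TdTomato 2, 3 or 4, LATS_KO 1 or 2, or any YAP_OE library (adjusted p = 0.067 to 0.099), and held in the reduced fit (1.99, adjusted p = 0.0059). It also ended with no filter on low counts (adjusted p = 0.051) and with the replicate block (adjusted p = 0.12), and voom gave 1.37 (adjusted p = 0.0018). Its close paralog Csnk1d was at 54.8 to 93.8 CPM in TdTomato and 86.7 to 101 CPM in YAP_OE. Rora, an activator at ROR elements, fell by 0.84 ± 0.29 on the log2 scale in YAP_OE (adjusted p = 0.043), a call that ended with RLE scaling (adjusted p = 0.093), with DESeq2 (0.077), with no filter on low counts (0.056), with the replicate block (0.063) and without TdTomato 2 or 3, LATS_KO 6 or any 1 YAP_OE library (adjusted p = 0.050 to 0.12). In YAP_OE against LATS_KO edgeR called 0 of the 14, with 1 at an unadjusted p under 0.05, Bhlhe41, where 0.988% of all genes were called. DESeq2 called 1 and voom 9 of the 14, where they called 6.03% and 56.1% of all genes.

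Bhlhe41 and Ciart, E-box-driven repressors, had the same high libraries as Dbp in LATS_KO. Bhlhe41 was at 1.95, 4.45 and 8.22 CPM in LATS_KO 1, 2 and 3 and at 25.3, 18.8 and 17.5 CPM in LATS_KO 4, 5 and 6, with at most 6.91 CPM in TdTomato and 2.54 CPM in YAP_OE. Ciart was at 2.33, 0.890 and 0 CPM and at 14.4, 14.8 and 7.03 CPM in the same libraries, with at most 2.46 CPM in TdTomato. Neither passed the test against TdTomato in LATS_KO, nor in YAP_OE against LATS_KO (Bhlhe41 −2.57 ± 0.89, adjusted p = 0.18), where both passed in the reduced fit.

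Of 16 output genes of the clock, 1 was higher and 0 lower in LATS_KO against TdTomato, 2 were higher and 5 lower in YAP_OE against TdTomato, and 1 was higher in YAP_OE against LATS_KO. Over all genes 11.0%, 28.7% (17.9% higher and 10.8% lower) and 0.988% were called. In the reduced fit the counts were 2 and 0, 3 and 6, and 1 and 3, where 16.9%, 48.4% and 12.7% of all genes were called. Nampt, the enzyme that limits NAD salvage, rose by 0.71 ± 0.20 in LATS_KO (adjusted p = 0.032) and by 0.80 ± 0.21 in YAP_OE (adjusted p = 0.011) on the log2 scale. The call in LATS_KO ended without TdTomato 2, 3 or 4 or LATS_KO 1 (adjusted p = 0.053 to 0.11), with no filter on low counts (0.051) and with the replicate block (0.050). Cys1, a cilium protein gene, was at 4.88 to 5.64 CPM in TdTomato and 40.1 to 60.6 CPM in YAP_OE and rose by 3.15 ± 0.48 (adjusted p = 0.0013). It was also higher in YAP_OE than in LATS_KO (2.20 ± 0.39, adjusted p = 0.013), a call that ended without YAP_OE 4 (adjusted p = 0.058) and with the replicate block (adjusted p = 0.11), while voom gave 2.97. Summed cholangiocyte markers, whose cells are ciliated, were at 3710 to 6180 CPM in YAP_OE and 24.1 to 47.9 CPM in TdTomato, and their part in this rise was not tested. Spp1 held most of these sums, at 3620 to 6063 CPM in YAP_OE and 17.2 to 37.9 CPM in TdTomato. Krt19, Epcam and Sox9 were also called higher in YAP_OE, and Krt7 was not called.

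Of the 5 lower output genes in YAP_OE, Elovl3, a fatty acid elongase, was at 165 to 274 CPM in TdTomato and 0.25 to 10.9 CPM in YAP_OE, and fell by 6.01 ± 1.46 on the log2 scale (adjusted p = 0.0086). That value was −6.95 without YAP_OE 5, −7.08 with voom and −7.44 with the replicate block. Elovl3 was at 0 to 53.5 CPM in LATS_KO, below every control there too, although that difference did not pass (−3.53 ± 1.22, adjusted p = 0.077). Noct (listed as Ccrn4l), the deadenylase-like Nocturnin gene, Alas1 (haem synthesis), Lpin1 (lipid phosphatase) and Gys2 (liver glycogen synthase) had log2 fold changes of −2.51, −1.94, −2.55 and −2.46 in YAP_OE (adjusted p = 0.043, 0.028, 0.017 and 0.030, edgeR). Each of these 4 calls ended when certain single libraries were left out, TdTomato 3 among them for each gene, with Lpin1 then at −1.30 (adjusted p = 0.13). Of the 15 fits that left out 1 library, the calls held in 5, 9, 14 and 8, in the same gene order. All 4 also ended with the replicate block (adjusted p = 0.053 to 0.094, edgeR), and Noct with RLE factors (0.052). The groups of Alas1 and Lpin1 overlapped. Summed hepatocyte markers were at 80900 to 142000 CPM in YAP_OE and 106000 to 183000 CPM in TdTomato. Of these 10 genes 3 were lower and 0 higher, where 28.7% of all genes were called and 10.8% called lower. Alb held most of these sums and was not called (−0.17, adjusted p = 0.81, edgeR). The part of these markers in the falls of the output genes was not tested.

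A list of 12 genes that respond to systemic timing cues (glucocorticoid and body temperature) had 3 higher and 1 lower in LATS_KO, 3 higher and 1 lower in YAP_OE, and 0 higher and 1 lower in YAP_OE against LATS_KO. Over all genes 11.0%, 28.7% and 0.988% were called. With only the groups compared, the calls named here for Csnk1e, Nampt, Cirbp, Rbm3, Hsph1 and Sgk1 in LATS_KO all ended (adjusted p = 0.065 to 0.23), a fit in which 0.00832% of all genes were called. The RNA-binding genes Cirbp and Rbm3, which are induced by mild cold and repressed by warmth, were higher in both. Cirbp was at 7.90 to 14.1 CPM in TdTomato, 19.8 to 70.3 CPM in LATS_KO and 23.2 to 36.5 CPM in YAP_OE, with log2 fold changes of 2.02 ± 0.35 (adjusted p = 0.0053) and 1.38 ± 0.34 (adjusted p = 0.0095, edgeR). Voom gave 1.16 for Cirbp in LATS_KO. Rbm3 rose by 2.87 ± 0.62 in LATS_KO (adjusted p = 0.012), or by 2.15 in the reduced fit and 1.17 with voom, and by 2.11 ± 0.61 in YAP_OE (adjusted p = 0.019). Hsph1, a heat shock chaperone of opposite temperature response, fell by 2.15 ± 0.47 in LATS_KO (adjusted p = 0.012) and had a log2 fold change of −1.26 ± 0.49 in YAP_OE (adjusted p = 0.066). No other heat shock gene of the list was called in either group. Hspa1b, Hspa8 and Hsp90aa1 were at −1.63, −0.80 and −0.84 in LATS_KO and at −0.74, −0.38 and −1.10 in YAP_OE. Hspa1a had positive values, 1.63 in LATS_KO and 2.65 in YAP_OE (adjusted p = 0.33 and 0.067, edgeR). Sgk1, a kinase induced by glucocorticoid and serum, rose by 1.87 ± 0.47 and 1.78 ± 0.48 (adjusted p = 0.020 and 0.013), and the call in LATS_KO ended without TdTomato 3 or 4 (adjusted p = 0.068 each), with voom (0.97, adjusted p = 0.065) and with the replicate block (adjusted p = 0.050). Tsc22d3, the glucocorticoid-induced leucine zipper gene, went the other way in YAP_OE, at 20.4 to 56.5 CPM against 91.5 to 156 CPM in TdTomato (−1.94 ± 0.28, adjusted p = 0.0012) and also against LATS_KO (−1.65 ± 0.26, adjusted p = 0.0067), where the call ended with the replicate block (adjusted p = 0.050). Fkbp5, another glucocorticoid target, was at 145, 217 and 162 CPM in LATS_KO 1, 2 and 3 and at 38.2, 42.9 and 28.3 CPM in LATS_KO 4, 5 and 6, the same division as for the clock genes, and did not pass against TdTomato (1.82 ± 0.63, adjusted p = 0.077).

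Markers of other cell types were tested in the same fits, where 11.0% of all genes were called in LATS_KO and 28.7% in YAP_OE. Macrophage markers (8 genes) summed to 3.81 to 14.6 CPM in TdTomato, 131 to 949 CPM in LATS_KO and 337 to 643 CPM in YAP_OE, with 8 and 7 of 8 higher. Endothelial markers (6 genes) summed to 13.2 to 43.3, 11.8 to 222 and 90.1 to 144 CPM, with 2 and 2 of 6 higher, in YAP_OE a share near that of all genes. Stellate cell and fibroblast markers (6 genes, Col1a1 at 0 in all TdTomato libraries) summed to 0.0774 to 11.2, 0 to 19.6 and 20.7 to 143 CPM, with 2 and 5 of 6 higher. Markers of dividing cells (6 genes) summed to 1.96 to 16.7, 41.9 to 449 and 76.5 to 242 CPM, with 6 and 6 of 6 higher. Lymphocyte and neutrophil markers (6 genes, Cd3e, Cd3d and Ms4a1 at 0 in all TdTomato libraries) stayed at or under 8.29 CPM in every library. The part of these cells in the clock values was not tested.

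Genes with the profiles most like 4 of the clock genes were found (Gm-numbered, Riken and mitochondrial genes passed over) by the root mean square difference of log2 CPM, each gene centred on its mean over 15 libraries, among 9398 genes with a mean of at least 5 CPM. Nearest to Npas2 were Nuak1 (0.697), Srgap3 (0.711) and Asns (0.784), where Npas2 itself varied by 1.92 about its mean. Nearest to Arntl were Lonrf3 (0.743), Desi2 (0.747) and Mpzl1 (0.756), against 2.02 for Arntl. Nearest to Dbp were Inmt (0.698), Srebf1 (0.792) and Aacs (0.833), against 1.26 for Dbp. Nearest to Nr1d1 were Ssfa2 (0.332), Cdc14b (0.345) and Zdhhc6 (0.345), against 0.967 for Nr1d1. Without TdTomato 1 and LATS_KO 3 the ranks of the last 3 were 135, 760 and 145, so that likeness rests on these 2 libraries. For Npas2, Nuak1, Srgap3 and Asns then had ranks 3, 1 and 6. For Arntl, Lonrf3, Desi2 and Mpzl1 had ranks 23, 6 and 12, and for Dbp, Inmt, Srebf1 and Aacs had ranks 4, 26 and 38.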

How the data were processed

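Gene counts of 15 liver libraries were used. The deposited files hold raw counts per gene symbol in 3 strand columns, made with FastQC, Trimmomatic and STAR on mm10 per the submitters' processing notes, without versions. The reverse-stranded column was used, since the forward column held 0.966% to 1.99% of strand-assigned counts. Lines naming no gene (14.2% to 92.5% of reads) were left out. CPM used TMM-scaled library sizes. Tests used edgeR 4.0.16 in R 4.3.3 (filterByExpr, estimateDisp, robust glmQLFit, glmQLFTest) in 1 fit of 15 libraries with 12 residual degrees of freedom, two-sided, with a threshold of 0.05 over 13055 genes. The SE is the log2 fold change over the square root of the test statistic. DESeq2 1.42.0, limma 3.58.1 voom, RLE factors, other filters, the unstranded column, a replicate block and left-out libraries were alternatives. Log2 profiles used a prior count of 2. The procedure was tested on simulated data. Named genes were the 10 clock genes, members of 3 further lists that passed or had the 3 smallest p per comparison, and nearest profiles. Csnk1d, Ciart, Hlf and the comparison of orders were added after the values were seen. The members and lists were chosen with earlier results of these data known. Per3 lies in a span shared with Camta1 on its strand, and Nr1d1 overlaps Thra on the other strand. No pair of libraries within a group differed only by sampling noise, and pairs across groups were not checked.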

Additional observations from a re-analysis of the deposited data

Results flagged for a closer look

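Among the 30 sets of values formed by 10 clock genes and 3 groups, 1 held a library far from the others of its group. Nr1d1 in YAP_OE 1 was at 125 CPM, while the nearest of the other 4 YAP_OE libraries was at 89.6 CPM, a gap of 0.807 of the whole range of the group. Chance alone marks about 1 in 20 such sets.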

How the results depend on the processing

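Counts of 0 limited the low genes: Arntl, Npas2, Per1 and Per2 had 0 counts in TdTomato 1, and Per3 in LATS_KO 3. TdTomato 1 held 13523194 counts in genes, near the 15934475 of TdTomato 3, where Arntl had 184 counts. The cause of these 0 counts was not tested. Both comparisons with TdTomato rest on 4 libraries. Cry1 kept its direction under every alternative run, and its call in YAP_OE held under all of them.
The number of clock genes called in LATS_KO against TdTomato was 1, and became 6 with voom quality weights, 0 with only the groups compared and 2 in the reduced fit, and 0 to 1 when single libraries were left out. In YAP_OE against TdTomato it was 1, and became 6, 3 and 2 under the same settings, and 1 to 2 when single libraries were left out, with Clock added without TdTomato 1, LATS_KO 3 or LATS_KO 5. In YAP_OE against LATS_KO it was 0, and became 5 with voom and 1 in the reduced fit. RLE factors moved the median log2 fold change of all genes in YAP_OE against TdTomato from 0.165 to 0.343, with Cry1 then at −2.04.
The replicate numbers were not shown to pair libraries, since the deviations of same-numbered libraries correlated at −0.249 to 0.232. With the replicate number as a block, 0 clock genes were called in LATS_KO against TdTomato, where Arntl was at 0.033. The block put Arntl at 0.042 in YAP_OE against TdTomato and, in YAP_OE against LATS_KO, Arntl at 0.0083 and Dbp at 0.23.
Other changes of sign were all of values not called in edgeR with 15 libraries, and the cause was not tested. In LATS_KO against TdTomato, Arntl was at 0.13 with RLE factors and with DESeq2, Nr1d1 at 0.050 with both, Npas2 at −2.13 with voom and Cry2 at −0.094 in the reduced fit. In YAP_OE against TdTomato, Per2 was at −0.25 with voom and −0.28 in the reduced fit. In YAP_OE against LATS_KO, voom gave 1.81 for Arntl, 0.40 for Clock and −0.44 for Per3, and the reduced fit gave −0.049 for Per3. With single libraries left out, LATS_KO against TdTomato ran from −0.50 to 0.61 for Arntl, −0.14 to 0.53 for Per2, −0.17 to 0.49 for Cry2 and −0.42 to 0.25 for Nr1d1. YAP_OE against TdTomato ran from −0.76 to 0.34 for Arntl, −0.285 to 0.38 for Per2 and −0.56 to 0.10 for Cry2. YAP_OE against LATS_KO ran from −0.48 to 0.067 for Arntl, −0.41 to 0.16 for Per2 and −0.049 to 0.57 for Per3.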
